A study of Mus musculus with 20 samples.

Results

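Creatine kinase and adenylate energy buffer genes were followed across extraocular and leg muscle of mdx and control mice, through the probe sets whose annotated gene symbol was Ckm, Ckmt2, Ckb, Ckmt1, Ak1 or Ampd1. The rule found 5 probe sets of 3 genes, among 12588 probe sets of 8220 named genes: 103618_at, 99270_f_at and 98663_f_at for Ckmt2, 93126_at for Ckb and 96801_at for Ak1. No probe set carried the symbol Ckm, Ckmt1 or Ampd1 in the annotation used here, so these 3 genes were not analysed here. All 5 probe sets passed the filter on dim signals.

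Total RNA was hybridised to 1-colour Affymetrix arrays, with 5 arrays in each of 4 groups: extraocular muscle of mdx mice, extraocular muscle of control mice, leg muscle of mdx mice and leg muscle of control mice, all 8 weeks old. The mdx mouse carries a nonsense mutation in the dystrophin gene Dmd and models Duchenne muscular dystrophy, and the controls were wild type. The labels name the control leg muscle as gastrocnemius/soleus and the mdx leg muscle only as leg muscle, so a difference in the muscles taken cannot be told apart from genotype. Strain, sex and pooling of animals are not given in the sources used here, and no label says that the arrays of a group came from different animals, so each p-value rests on array-to-array spread that may be only technical. Extraocular muscles, which move the eye, are known to be largely spared in this disease.

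Muscle contraction consumes ATP faster than mitochondria can resupply it. Creatine kinases bridge this gap by moving phosphate between ATP and creatine: a mitochondrial form charges creatine where ATP is made, and a cytosolic form recharges ADP beside the myofibrils and the calcium pumps. Adenylate kinase recovers further ATP by disproportionating ADP, and AMP deaminase and the purine nucleotide cycle remove and later restore the AMP that results. Ckmt2 encodes the sarcomeric mitochondrial creatine kinase of skeletal and heart muscle, Ckb the cytosolic brain-type creatine kinase, which is also found in smooth muscle, nerve and immature muscle, and Ak1 the main cytosolic adenylate kinase of muscle.

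The start regions of Ckmt2 and Ckb are shown because these genes belong to different expression programmes, a striated muscle one and a broader one, and both are set side by side below. Each window runs from 250 bases before to 50 bases after a RefSeq transcript start (build GRCm38.p6, minus strand, 5′ to 3′; chr13:91876836-91877135 for Ckmt2 and chr12:111672289-111672588 for Ckb). Capitals mark matches to the E-box CANNTG, a motif read by MyoD and related factors, and to the MEF2 consensus, searched on both strands.
Ckmt2: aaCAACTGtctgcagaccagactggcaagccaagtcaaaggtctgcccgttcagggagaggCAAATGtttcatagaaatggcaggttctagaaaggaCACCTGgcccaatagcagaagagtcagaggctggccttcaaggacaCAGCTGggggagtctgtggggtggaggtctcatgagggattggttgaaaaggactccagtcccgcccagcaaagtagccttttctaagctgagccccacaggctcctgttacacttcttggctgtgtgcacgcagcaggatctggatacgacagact
Ckb: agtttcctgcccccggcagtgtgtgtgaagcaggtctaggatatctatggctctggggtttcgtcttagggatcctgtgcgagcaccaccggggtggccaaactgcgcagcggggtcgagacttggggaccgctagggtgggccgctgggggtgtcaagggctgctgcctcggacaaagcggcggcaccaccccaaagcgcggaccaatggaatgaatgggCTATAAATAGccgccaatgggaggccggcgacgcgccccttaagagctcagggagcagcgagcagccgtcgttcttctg
The Ckmt2 window held 4 E-boxes, which began at positions -248, -189, -153 and -107 from the start, and no match to the MEF2 consensus. The Ckb window held no E-box and 1 match to the MEF2 consensus, at position -29, and the letters TATAAA lay inside that match. Of 32851 RefSeq windows of this length, 72.3% held an E-box, 0.557% the MEF2 consensus and 13.6% TATAAA. Ak1 has 4 listed start regions and the array does not tell them apart, so none is shown. These matches describe the letters of the windows only.

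Some arrays stood apart. Dmd, the mutated gene, averaged lower in mdx arrays, at 102 to 175 in mdx against 204 to 325 in control extraocular muscle, and at 37.3 to 126 in mdx against 100.2 to 212 in control leg muscle, where the ranges overlapped and the test passed (limma adjusted p = 0.0323, against 0.233 in extraocular muscle). The array labelled leg control 1 was high for fibre genes: the summed signal of 7 genes expressed in all skeletal fibres was 91853 on it, the highest of the leg controls, against a leg control median of 38696. The array labelled leg control 4 had a summed slow fibre signal of 2353, where the leg control median was 32261, and a signal of 8892 for the salivary gland transcript Bpifa2, where the leg control lowest was 78.1. All extraocular arrays also carried Bpifa2 signal, at 3030 to 4296 in mdx and 3578 to 4634 in control mice, against 156 to 306 in mdx leg muscle. Values without 1 or both of these arrays are given below for the fitted differences of the energy buffer probe sets and for some pathway differences. Elsewhere they are not given, as for the Dmd test, the marker lists and the levels set against fibre genes. Within each muscle the description field is worded differently for mdx and for control arrays, and any batch that follows that wording cannot be told apart from genotype. All 3 tested nerve and Schwann cell genes were higher in extraocular than in leg muscle in both genotypes.

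In leg muscle, 1 of the 3 Ckmt2 probe sets fell in mdx mice, while Ckb and Ak1 passed no test. The probe set 99270_f_at read 5234, 4321, 2962, 3563 and 3358 on the mdx leg arrays, against 9680, 6252, 5939, 5386 and 5618 on the control leg arrays. All 5 mdx arrays lay below all 5 controls, and leg control 1 was the brightest of them. Over all genes, 5.19% of the tested probe sets lay lower in every mdx than in every control leg array. Mean signals were 3888 ± 900.2 in mdx and 6575 ± 1766 in control leg muscle (SD, n = 5 each), a log2 difference of -0.75 (SE 0.21, 95% interval -1.18 to -0.33, limma adjusted p = 0.0124). This 1.68-fold lower level kept its call without leg control 1 (log2 difference -0.60, limma adjusted p = 0.0413) and lost it without leg control 1 and 4 together (-0.64, limma adjusted p = 0.0588).

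The other Ckmt2 probe sets were lower in mdx leg muscle on average but did not pass. The brightest, 103618_at, read 11947, 10029, 6961, 8790 and 12675 on mdx leg arrays, against 21379, 12436, 10137, 11095 and 11686 on control leg arrays. The groups overlapped, and the highest control value was again that of leg control 1. Its log2 difference was -0.38 (95% interval -0.80 to 0.03, limma adjusted p = 0.211), and -0.21 without leg control 1 and 4. The third, 98663_f_at, read 1807 to 2748 in mdx and 2574 to 8080 in control leg muscle, with a log2 difference of -0.61 (95% interval -1.14 to -0.08, limma adjusted p = 0.107), and -0.31 without leg control 1. With the replicate number as a block, 98663_f_at passed (limma adjusted p = 0.018). Names ending in _f_at mark probe sets that the array's maker designed as shared within a gene family, so both of these may read more than Ckmt2.

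Ckb, the brain-type enzyme, read 1837, 1487, 1533, 1747 and 2044 on mdx leg arrays, against 1538, 1852, 2678, 2455 and 2095 on control leg arrays. The ranges overlapped, and here leg control 1 was the dimmest of its group. The log2 difference was -0.28 (95% interval -0.59 to 0.03, limma adjusted p = 0.219), and -0.39 without leg control 1 (0.0684) or -0.35 without leg control 1 and 4 (0.16). Ak1, the cytosolic adenylate kinase, read 12557, 9070, 7138, 7833 and 11158 on mdx leg arrays, against 14357, 8695, 9066, 10073 and 12574 on control leg arrays, and the groups overlapped over most of their range. Its log2 difference was -0.20 (95% interval -0.60 to 0.20, limma adjusted p = 0.532) was -0.098 without leg control 1, and turned to 0.039 with quantile normalization.

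**Figure D1:**
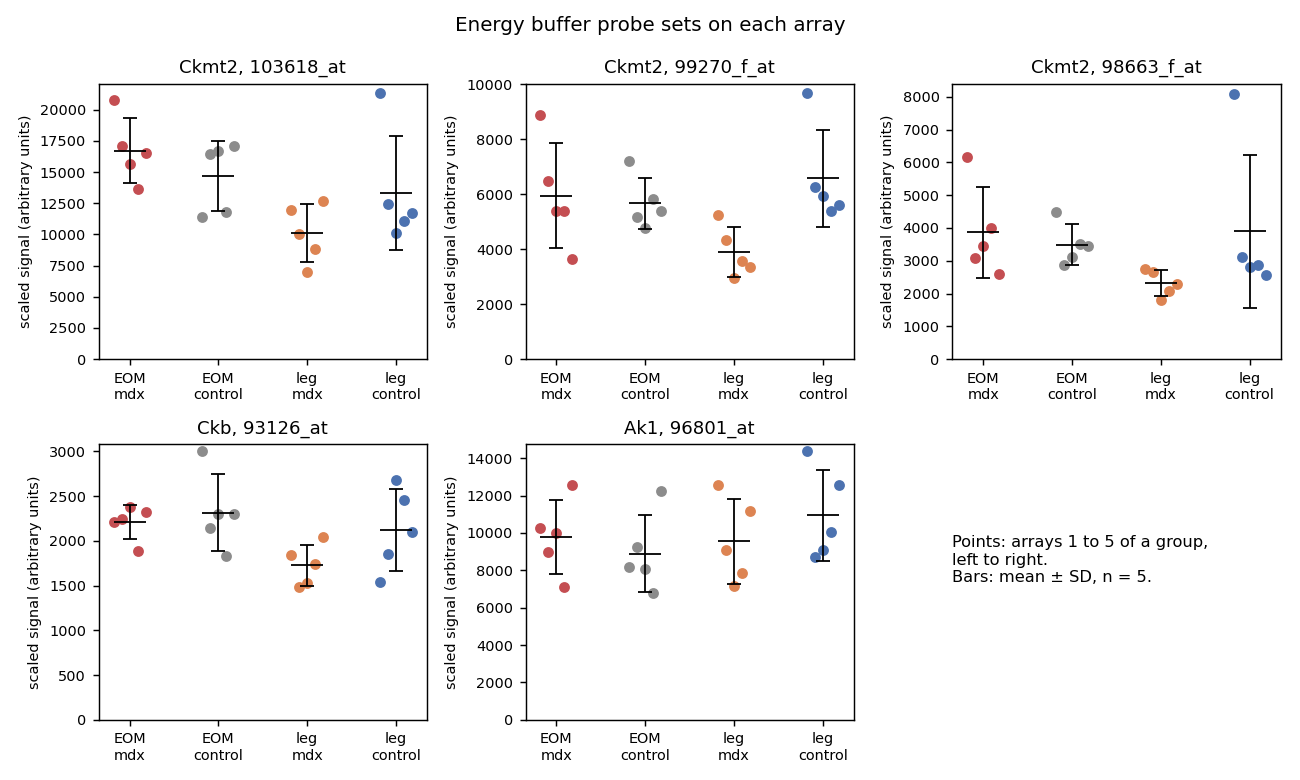
Scaled signal of each energy buffer probe set on each of the 20 arrays (EOM, extraocular muscle); points are arrays 1 to 5 of a group from left to right, and bars are mean ± SD (n = 5). For Ckmt2 99270_f_at the mdx leg arrays lie between 2962 and 5234, all below the control leg arrays, and leg control 1 is the highest control leg point on all 3 Ckmt2 panels.

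Read against all genes, 1 of 5 probe sets passing was close to the background, since 17.9% of the 7204 tested probe sets passed in this comparison and 7.15% passed as lower in mdx. All 5 probe sets had a negative log2 difference, as did 56.5% of all tested probe sets. Their median was -0.38, beside -0.06 over all tested probe sets. In whole muscle, fewer fibres and less RNA per fibre cannot be told apart. Macrophage genes moved with the comparison: 10 of 10 listed genes rose in mdx leg muscle. Their summed signals were 35853 to 46361 in mdx and 4490 to 6959 in control leg muscle. Over all arrays of both muscles, the dimmest value of these genes was 38.6, for Adgre1, which is under the floor of 50. Whether any of these transcripts was absent from control leg muscle was not tested. Fibroblast and matrix genes rose for 7 of 8, with sums of 46365 to 54762 in mdx and 23942 to 28420 in control leg muscle. In limma 0 of 9 tested fast fibre genes and 0 of 8 slow fibre genes passed, with 2 and 1 at an unadjusted p under 0.05. Of 7 genes of all skeletal fibres 1 fell, the calcium channel gene Cacna1s, and the 7 summed to 22595 to 48363 in mdx and 30193 to 91853 in control leg muscle. Set against the mean of those 7 genes on the same array, the log2 level of 99270_f_at was 0.40 ± 0.45 in mdx and 0.91 ± 0.37 in control leg muscle, and that of 103618_at was 1.77 ± 0.31 in mdx and 1.91 ± 0.37 in control leg muscle (SD, n = 5 each). The beta-actin control probe sets, whose 3′ to 5′ signal ratio is used to judge RNA and labelling quality, differed as well. Their log2 ratio was -1.86 ± 1.25 in mdx leg muscle, where the 5′ probe set was the brighter, and 0.50 ± 0.37 in control leg muscle. For Gapdh it was -2.50 ± 0.14 in mdx and -2.48 ± 0.84 in control leg muscle, with the 5′ probe set the brighter in both (SD, n = 5 each). The part of these cell types and of this ratio in the Ckmt2 difference was not tested.

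In extraocular muscle none of the 5 probe sets passed between mdx and control mice in limma, and 0 did at an unadjusted p under 0.05; 0.0833% of all tested probe sets passed. Ckmt2 103618_at read 20750, 17126, 15651, 13618 and 16511 on mdx arrays, against 11432, 16468, 16730, 11793 and 17061 on control arrays. The 2 groups overlapped, and 2 control arrays lay below all mdx arrays. The log2 difference was 0.20 (95% interval -0.22 to 0.61, limma adjusted p = 0.999). The probe sets 99270_f_at and 98663_f_at differed by 0.03 (95% interval -0.40 to 0.45) and 0.10 (-0.43 to 0.63). Ckb read 1889 to 2378 in mdx and 1832 to 3003 in control extraocular muscle, a log2 difference of -0.05 (95% interval -0.36 to 0.25). Ak1 read 7119 to 12575 in mdx and 6761 to 12222 in control extraocular muscle, a log2 difference of 0.14 (95% interval -0.25 to 0.54). The intervals of Ckb and Ak1 include the differences fitted for them in leg muscle.

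Whether the mdx effect differed between the muscles was tested directly, and 0 of the 5 probe sets passed in limma, with 1 at an unadjusted p under 0.05. The leg effect minus the extraocular effect was -0.78 for 99270_f_at (SE 0.29, limma adjusted p = 0.137), -0.71 for 98663_f_at and -0.58 for 103618_at. It was -0.35 for Ak1 and -0.22 for Ckb. Without leg control 1 it was -0.63 for 99270_f_at, -0.41 for 98663_f_at, -0.39 for 103618_at, -0.24 for Ak1 and -0.33 for Ckb, with limma adjusted p of 0.225 to 0.718. Over all genes 6.22% of probe sets passed, 4.93% as positive and 1.29% as negative differences. The 99270_f_at difference passed without mdx extraocular array 5 (limma adjusted p = 0.042) and with the replicate number as a block (0.0118).

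Between the muscles, Ckmt2 was higher in extraocular than in leg muscle of mdx mice, on 1 of its 3 probe sets, and no energy buffer probe set passed in control mice. The values of 103618_at given above put all 5 mdx extraocular arrays above all 5 mdx leg arrays, the lowest extraocular value being 13618 and the highest leg value 12675, and 7.38% of all tested probe sets were higher in this way. The log2 difference was 0.75 (SE 0.20, 95% interval 0.34 to 1.16, limma adjusted p = 0.0104), a 1.68-fold higher level. It passed in all 10 fits that each left out 1 of these arrays (limma adjusted p of 0.00726 to 0.0376). The 2 family probe sets lay in the same direction without passing, at 0.58 for 99270_f_at (limma adjusted p = 0.0525) and 0.69 for 98663_f_at (0.0657). The first of these passed without mdx leg array 1 (0.025) and without mdx extraocular array 5 (0.0108). With the replicate number as a block, both family probe sets passed (limma adjusted p = 0.00287 and 0.00854). Ckb differed by 0.36 (95% interval 0.05 to 0.67, limma adjusted p = 0.101), with 1889 to 2378 in extraocular and 1487 to 2044 in leg muscle of mdx mice. Ak1 differed by 0.04 (95% interval -0.35 to 0.44) and by -0.14 with quantile normalization. The share of all tested probe sets that passed in mdx mice was 18.1%, and 9.24% passed as higher in extraocular muscle.

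In control mice the same tissue difference was 0.17 for 103618_at (95% interval -0.24 to 0.59, limma adjusted p = 0.634), -0.20 for 99270_f_at and -0.02 for 98663_f_at. Without leg control 1 these were 0.36, -0.047 and 0.28. Ckb differed by 0.13 (95% interval -0.17 to 0.44) and Ak1 by -0.30 (-0.70 to 0.10), and without leg control 1 by 0.025 and -0.20. In limma 0 of 5 passed, also at an unadjusted p under 0.05, against 17.7% of all tested probe sets. With quantile normalization the 103618_at difference was 0.35 and passed (limma adjusted p = 0.0239).

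**Figure D2:**
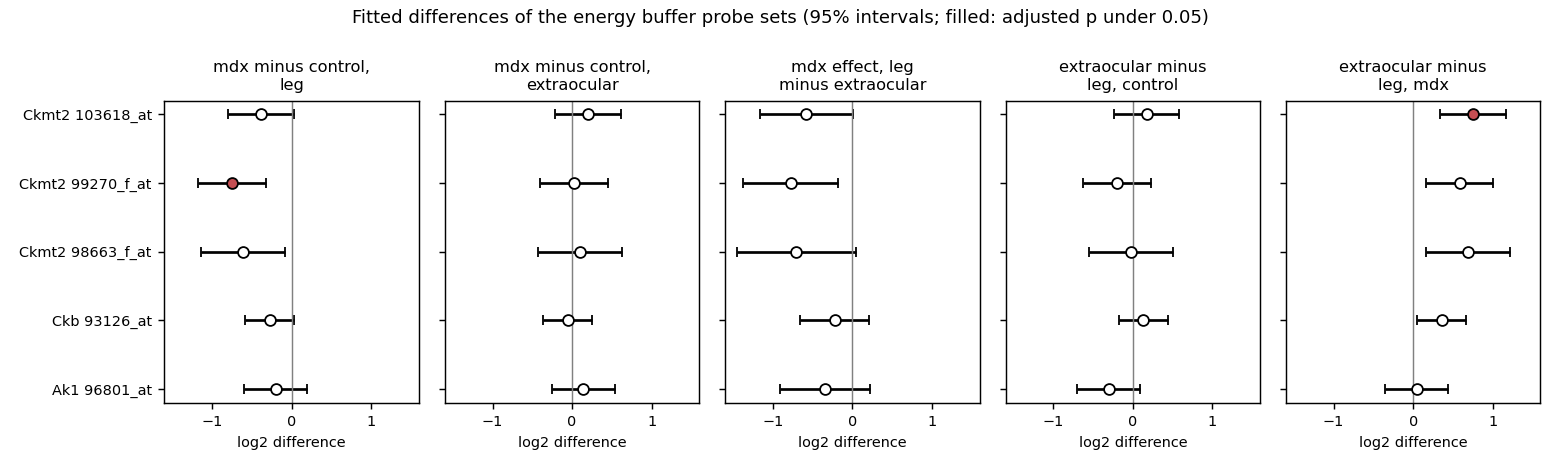
Fitted log2 differences of the 5 probe sets in the 5 comparisons, with 95% intervals; filled points passed at an adjusted p under 0.05. The filled points are Ckmt2 99270_f_at in leg muscle (-0.75) and Ckmt2 103618_at between the muscles of mdx mice (0.75).

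By mean signal, Ckmt2 103618_at ran from 16731 ± 2608 in mdx extraocular muscle, 14697 ± 2826 in control extraocular muscle and 13347 ± 4568 in control leg muscle to 10080 ± 2324 in mdx leg muscle (SD, n = 5 each). No neighbouring pair in this order passed, and the highest and lowest group differed as given above. The mdx extraocular and control leg groups, and the control extraocular and mdx leg groups, were not compared with each other for any gene. Ckb ran from 2316 ± 429 in control extraocular, 2209 ± 190.2 in mdx extraocular and 2124 ± 457 in control leg to 1729 ± 228 in mdx leg muscle, with no tested pair past the threshold. Ak1 had means of 10953 ± 2431 in control leg, 9789 ± 1987 in mdx extraocular, 9551 ± 2271 in mdx leg and 8892 ± 2059 in control extraocular muscle, again with no tested pair past the threshold.

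Some skeletal fibre genes differed with the muscle in mdx mice. Of 7 genes of all skeletal fibres 3 were higher in extraocular than in leg muscle, namely the actin Acta1, myoglobin Mb and the calcium store protein Casq1, and the list had a median log2 difference of 0.16. Of 9 fast fibre genes the myosin Myh4 was higher and the actinin Actn3 and the parvalbumin Pvalb were lower in extraocular muscle (log2 differences 1.01, -0.82 and -1.23), and of 8 slow fibre genes 0 passed in limma, with 3 at an unadjusted p under 0.05. The 7 genes of all fibres summed to 47223 to 66231 in extraocular and 22595 to 48363 in leg muscle of mdx mice. Relative to these 7 genes on the same array, the log2 level of 103618_at was 1.80 ± 0.17 in extraocular and 1.77 ± 0.31 in leg muscle of mdx mice (SD, n = 5 each), so the ranges overlapped on that scale. The 7 genes did not move together. In extraocular and leg muscle of mdx mice Acta1 averaged 12074 and 3733, Casq1 14529 and 4964, and Mb 10779 and 6830. The others averaged 2585 and 2549 (Des), 11778 and 11863 (Ryr1), 3760 and 3364 (Cacna1s), and 312 and 413 (Tcap). The level of 103618_at against these others alone was not computed. Smooth muscle, nerve and immature muscle also hold Ckb. Smooth muscle genes were higher for 4 of 5, with sums of 7020 to 10314 in extraocular and 3070 to 4307 in leg muscle of mdx mice. Nerve and Schwann cell genes were higher for 3 of 3. Of 8 regenerating fibre genes 3 were higher and 3 lower in extraocular muscle. Over all tested probe sets 9.24% passed as higher and 8.83% as lower. All 10 macrophage genes were lower in extraocular than in leg muscle of mdx mice, with sums of 7722 to 14199 in extraocular and 35853 to 46361 in leg muscle. Fibroblast and matrix genes were lower for 2 of 8 and endothelial genes higher for 3 of 6. The log2 ratio of 3′ to 5′ beta-actin signal was 0.17 ± 0.35 in extraocular and -1.86 ± 1.25 in leg muscle of mdx mice (SD, n = 5 each). For Gapdh it was -1.27 ± 0.62 in extraocular and -2.50 ± 0.14 in leg muscle of mdx mice, with no overlap. In control extraocular muscle the ratios were 0.08 ± 0.20 for beta-actin and -2.35 ± 0.84 for Gapdh. The part of these in the Ckmt2 and Ckb values was not tested.

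**Figure D3:**
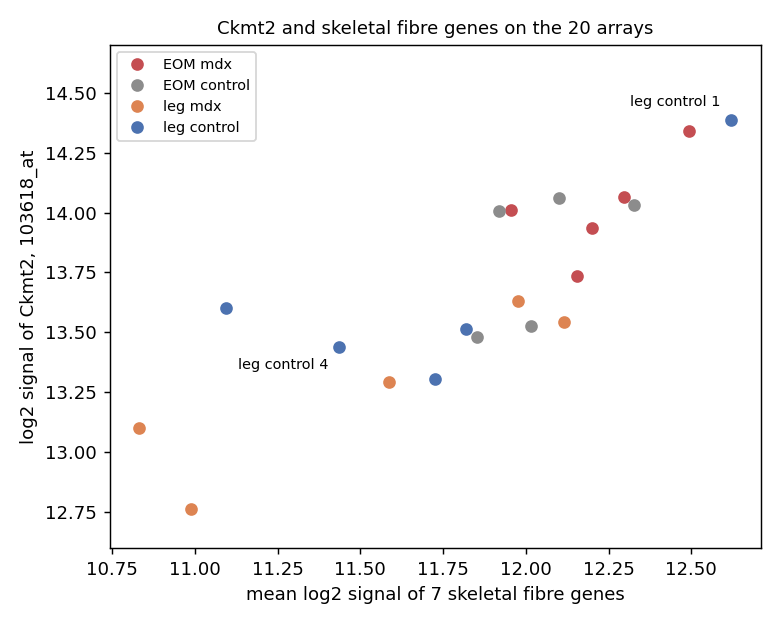
Log2 signal of Ckmt2 103618_at against the mean log2 signal of 7 skeletal fibre genes on each of the 20 arrays (EOM, extraocular muscle), with leg control 1 and 4 marked. Leg control 1 lies at the top right, with the highest Ckmt2 signal (21379), and the lowest Ckmt2 signal (6961) is that of an mdx leg array.

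The genes whose signal ran most like each member over the 20 arrays were found by Pearson correlation of log2 signals, given as a description; the arrays share groups and scaling. For Ckmt2, read on its brightest probe set 103618_at, they were Acaa2, a thiolase of mitochondrial fatty acid oxidation (r = 0.935), Ndufv1 of respiratory complex I (r = 0.909) and Uqcrq of complex III (r = 0.892). Acaa2 averaged 13990 in mdx and 12244 in control extraocular muscle, and 8767 in mdx and 11141 in control leg muscle. Within groups, after each group's mean was removed, these correlations were 0.880, 0.833 and 0.872, and without leg control 1 they were 0.940, 0.912 and 0.871. For Ak1 the nearest were the ribosomal protein gene Rplp0 (r = 0.891), the complex I gene Ndufb2 (r = 0.858) and Slc25a4, the ADP/ATP carrier of muscle mitochondria (r = 0.838). For Ckb the values were lower, at 0.743 for the potassium channel gene Kcnj12, 0.731 for the water channel gene Aqp1 and 0.725 for the growth factor gene Vegfa, and within groups at 0.570, 0.547 and 0.562. Within groups the Ak1 values were 0.905, 0.914 and 0.850. Among the members themselves, 99270_f_at and 98663_f_at ran closest (r = 0.885), 103618_at ran with them at 0.593 and 0.708, and Ckb and Ak1 at 0.063. Within groups these values were 0.858, 0.458, 0.584 and 0.116. Ckmt2 103618_at ran with Ak1 at 0.487 over all arrays and at 0.735 within groups, there closer than with the other Ckmt2 probe sets.

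The rest of the pathway was read from a list of genes of creatine synthesis and transport, other adenylate kinases, the purine nucleotide cycle, AMP-activated protein kinase, purine salvage and breakdown, and mitochondrial ADP/ATP exchange. Of 22 genes with a probe set 19 were tested, each by its brightest tested probe set. In leg muscle 3 rose and 2 fell in mdx mice, beside 10.7% of all tested probe sets passing as higher and 7.15% as lower, and the same number passed in each of the 10 fits without 1 array. Without leg control 1 and 4 together these calls also held, with log2 differences of 2.23 for Gatm, 1.31 for Pnp, 0.57 for Adss, -0.73 for Adssl1 and -0.79 for Adsl. In extraocular muscle 0 of 19 passed between mdx and control mice in limma, with 1 at an unadjusted p under 0.05. The median log2 difference of the 19 genes was 0.28 in leg and -0.01 in extraocular muscle.

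Gatm, the enzyme of the first step of creatine synthesis, had the largest mdx difference of the list. It read 1457, 1264, 1033, 1491 and 1714 on mdx leg arrays, against 127, 300.6, 382, 339 and 218 on control leg arrays. Every mdx array lay above every control, and leg control 1 was the dimmest; 8.38% of all tested probe sets were higher in every mdx than in every control leg array. The level was 5.38-fold higher in mdx leg muscle (log2 difference 2.43, SE 0.22, limma adjusted p = 4.82e-08). In extraocular muscle Gatm averaged 826 ± 167 in mdx and 908 ± 34.6 in control mice, a difference that did not pass. The leg effect exceeded the extraocular one by 2.59 log2 units (limma adjusted p = 1.67e-05). Across muscles, Gatm was 3.56-fold higher in extraocular than in leg muscle of control mice, and 1.69-fold lower in extraocular than in leg muscle of mdx mice (limma adjusted p = 3.29e-06 and 0.0202), the second call being lost without mdx leg array 5 (0.0555).

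The other creatine genes passed no mdx test. Gamt, which completes creatine by methylation, averaged 1408 ± 86.3 in mdx and 804 ± 188 in control leg muscle (log2 difference 0.84, limma adjusted p = 0.0938). All 5 mdx leg arrays nevertheless lay above the controls, as was so for 8.38% of all tested probe sets. The fit shares the spread of each gene over all 4 groups, and mdx extraocular array 3 read 83.6 for Gamt, beside 444 to 497 on the other mdx extraocular arrays. The part of that array in the leg result was not tested. Gamt was 4.25-fold lower in extraocular than in leg muscle of mdx mice (391 ± 173 against 1408 ± 86.3, limma adjusted p = 0.000113). The creatine transporter gene Slc6a8 averaged 842 in mdx and 1082 in control leg muscle (log2 difference -0.36, limma adjusted p = 0.0907).

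In the purine nucleotide cycle 2 of 4 tested genes fell and 1 rose in mdx leg muscle, beside 7.15% and 10.7% of all tested probe sets. Of all tested probe sets 5.19% lay lower in every mdx than in every control leg array, as did both genes that fell. Adssl1, the muscle form of adenylosuccinate synthase, read 7127, 6629, 5934, 6876 and 5904 on mdx leg arrays, against 12191, 10545, 10540, 11551 and 11106 on control leg arrays. The 2 groups were far apart, with no array between 7127 and 10540. The level was 1.72-fold lower (log2 difference -0.79, limma adjusted p = 5.03e-06). Adsl, the lyase of the next step, read 1137, 1070, 1252, 1543 and 917 on mdx leg arrays, against 1774, 1960, 2228, 1798 and 1893 on control leg arrays, again without overlap, and was 1.65-fold lower (limma adjusted p = 0.000968). Adss, the synthase form of other tissues, rose 1.61-fold on the probe set 99039_g_at, the brighter over all 20 arrays (820 ± 172 in mdx against 514 ± 115 in control leg muscle, limma adjusted p = 0.00866), while its other probe set 99038_at, the brighter in leg muscle at means of 848 in mdx and 528 in control, did not pass (log2 difference 0.64, limma adjusted p = 0.112). Ampd3, the only AMP deaminase gene of the list with a probe set, had a log2 difference of 0.30 (limma adjusted p = 0.256).

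In extraocular muscle Adssl1 averaged 5981 ± 457 in mdx and 6382 ± 412 in control mice, both close to the mdx leg mean of 6494 ± 554. The leg effect was the more negative by 0.69 log2 units (limma adjusted p = 0.00373, and 0.113 with quantile normalization). In control mice Adssl1 was 1.75-fold lower in extraocular than in leg muscle (limma adjusted p = 4.03e-06). Adsl was higher in extraocular than in leg muscle of mdx mice, by 0.50 on the log2 scale (limma adjusted p = 0.0175), a call lost without mdx leg array 5 (0.0553) and without mdx extraocular array 5 (0.0548).

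**Figure D4:**
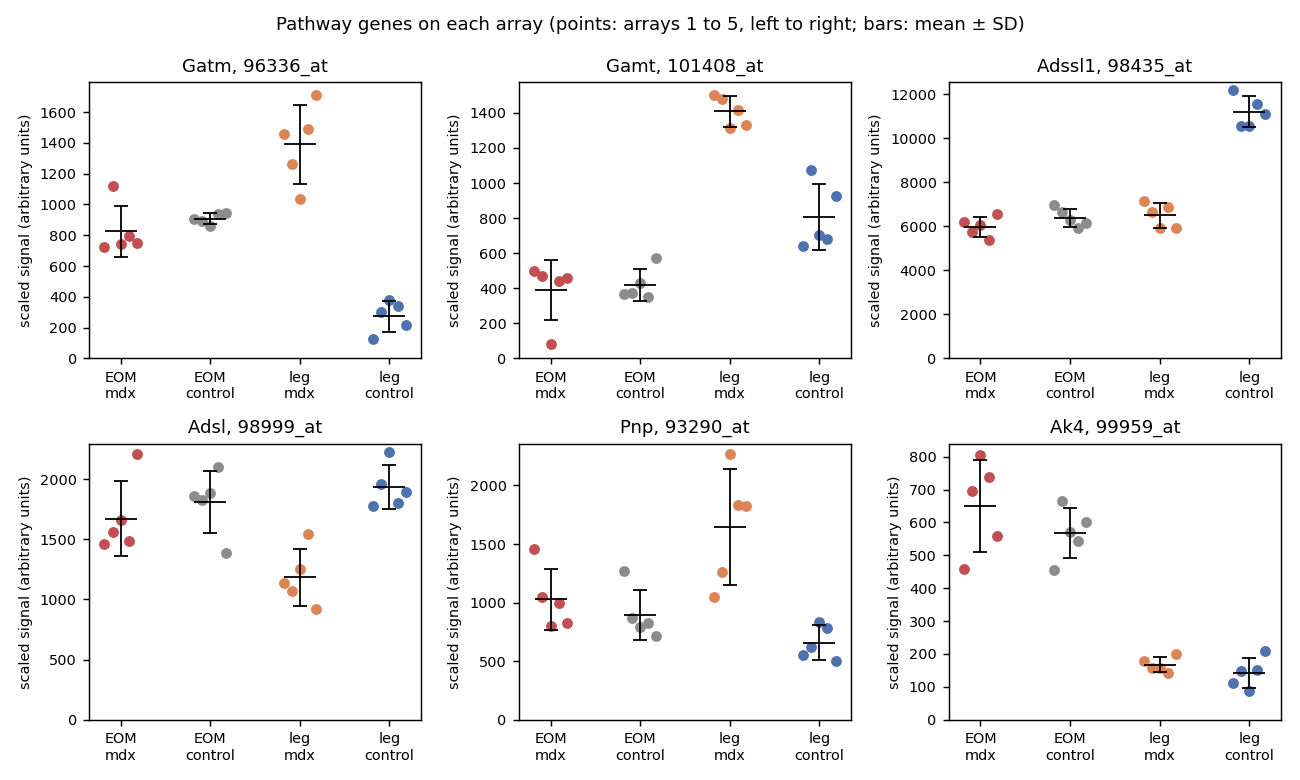
Scaled signal of 6 pathway genes on each array (EOM, extraocular muscle); points are arrays 1 to 5 of a group from left to right, and bars are mean ± SD (n = 5). Gatm is higher and Adssl1 and Adsl are lower in mdx than in control leg muscle with no overlap, while Ak4 separates the extraocular from the leg arrays.

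Among purine salvage and breakdown genes, Pnp, which splits purine nucleosides, was the 1 of 6 that rose in mdx leg muscle, beside 10.7% of all tested probe sets. It read 1044, 1258, 2268, 1830 and 1826 on mdx leg arrays, against 556, 622, 837, 784 and 498 on control leg arrays. All mdx arrays lay above all controls, as was so for 8.38% of all tested probe sets. Pnp was 2.45-fold higher in mdx leg muscle (limma adjusted p = 0.000134). The leg effect exceeded the extraocular one by 1.10 log2 units (limma adjusted p = 0.0313), a call lost in 8 of the 20 fits without 1 array: without mdx leg array 3, 4 or 5, mdx extraocular array 3 or 5, control leg array 1 or 5, or control extraocular array 1 (limma adjusted p of up to 0.068). It was also lost without leg control 1 and 4 together (0.0542). Pnp and the adenosine kinase gene Adk were lower in extraocular than in leg muscle of mdx mice, by 1.58-fold and 1.56-fold (limma adjusted p = 0.0344 and 0.0247), and of 10 fits without 1 array the Pnp call was lost in 7 and the Adk call in 5. Adk was read on the family probe set 93512_f_at, which may read more than Adk, and its other probe sets, 101647_at and 97690_at, were too dim to be tested. The Pnp call was lost without mdx leg array 3, 4 or 5 and mdx extraocular array 2, 3, 4 or 5 (limma adjusted p of up to 0.109). The Adk call was lost without mdx leg array 2, 4 or 5 and mdx extraocular array 4 or 5 (limma adjusted p of up to 0.0752).

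**Figure D5:**
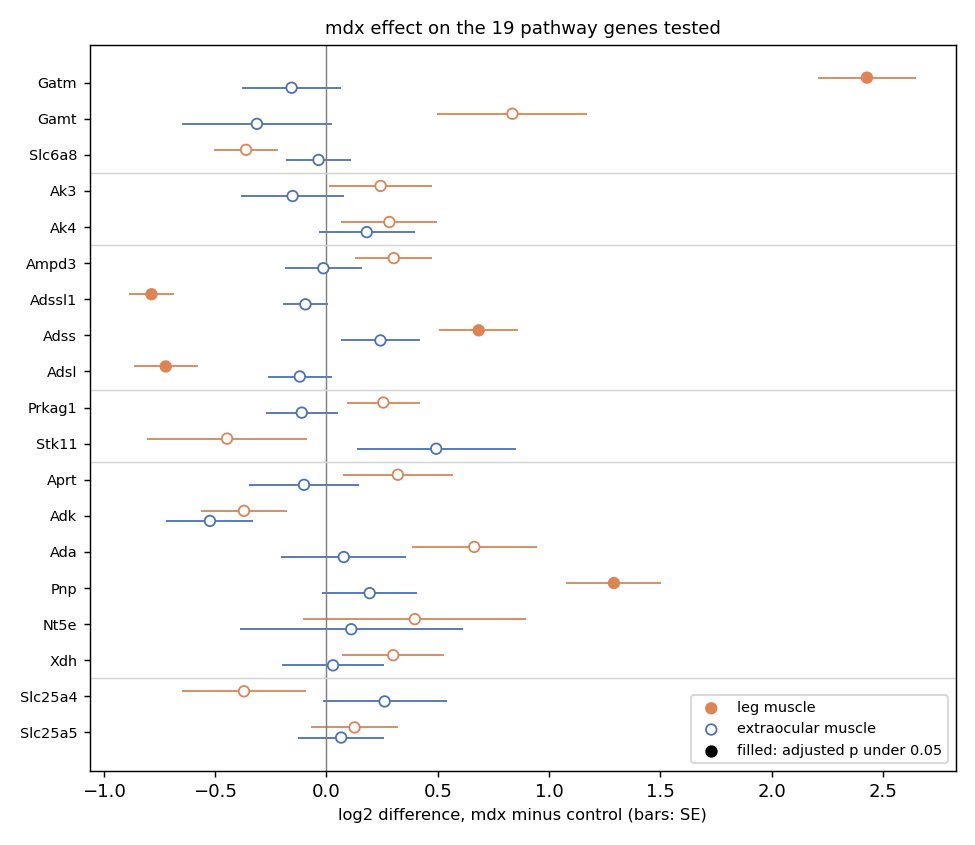
Log2 difference between mdx and control mice for the 19 tested pathway genes in leg muscle and in extraocular muscle, with SE; grey lines part the lists and filled points passed at an adjusted p under 0.05. Gatm (2.43) and Pnp (1.29) lie furthest right and Adssl1 (-0.79) and Adsl (-0.72) furthest left among the leg values, and no extraocular point is filled.

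Between the muscles, 3 further genes passed. Ak4, an adenylate kinase of the mitochondrial matrix, was 4.13-fold higher in extraocular than in leg muscle of control mice (567 ± 76.6 against 142 ± 45.6) and 3.85-fold higher in mdx mice (651 ± 140 against 167 ± 22.5), with no overlap in either, as was so for 7.69% of all tested probe sets in control mice (limma adjusted p = 5.07e-07 and 9.59e-07). Prkag1, a subunit of AMP-activated protein kinase, was 1.99-fold higher in extraocular muscle of control mice and 1.55-fold higher in mdx mice (limma adjusted p = 0.000138 and 0.00848). Ampd3 was 1.67-fold higher in extraocular than in leg muscle of control mice (limma adjusted p = 0.00421). Without leg control 1 and 4 together, the log2 differences in control mice were 2.01 for Ak4, 0.98 for Prkag1 and 0.69 for Ampd3 (limma adjusted p = 8.92e-06, 0.000503 and 0.0209). In all, 4 of the 19 genes were higher and 1 lower in extraocular muscle of control mice, beside 10.3% and 7.41% of all tested probe sets. In mdx mice 3 were higher and 4 lower, beside 9.24% and 8.83% of all tested probe sets. Other cell types differed between the muscles of control mice too. Higher in extraocular muscle were 4 of 5 smooth muscle, 5 of 8 fibroblast and matrix, and 3 of 3 nerve and Schwann cell genes, and none of these was lower. Bpifa2, the only tested gene of 7 for epithelium and gland, was higher by 3.06 log2 units in control and 3.95 in mdx mice. The part of these in the differences between the muscles was not tested.

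The macrophage and matrix sums given above moved with the Gatm, Pnp, Adssl1 and Adsl differences in leg muscle. So did the summed signal of regenerating fibre genes, at 6615 to 7313 in mdx and 3814 to 4918 in control leg muscle. Of these 8 genes 3 rose, beside 10.7% of all tested probe sets passing as higher. Myh3 averaged 383 in mdx and 607 in control leg muscle, Myh8 477 and 552, and Myf5 126 in both. The other genes of that list averaged higher in mdx leg muscle. Relative to the 7 skeletal fibre genes of the same array, the log2 level of Gatm was -1.08 ± 0.49 in mdx and -3.75 ± 1.15 in control leg muscle, and that of Adssl1 was 1.16 ± 0.57 in mdx and 1.71 ± 0.51 in control leg muscle (SD, n = 5 each), where the ranges of Adssl1 overlapped and those of Gatm did not. The beta-actin ratio given above moved with them too. The part of these in the 4 differences was not tested.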

How the data were processed

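The authors deposited 1 linear intensity per probe set and array, already scaled: the 2% trimmed mean was 1486 to 1496 on each of the 20 arrays. No source used here names the software behind these values. Hybridisation of mdx arrays followed the maker's standard protocol, per the labels. Each array was rescaled to a 2% trimmed mean of 500 over 12588 non-control probe sets, values under 50 were set to 50, before taking log2. Printed signals are scaled values without that floor. The 7204 probe sets at 200 or more on at least 5 arrays were tested in limma 3.58.1 (R 4.3.3; lmFit, eBayes with an intensity trend; 4 groups, no covariate), with Benjamini-Hochberg adjustment over all of them in each of 5 contrasts. Folds are ratios of geometric means. The fit was tested on simulated data for the mdx comparison in leg muscle. It recovered 4.4% of 1.25-fold, 25.6% of 1.5-fold, 66.4% of 2-fold and 96.4% of 4-fold changes, with false calls at 5.09%. A probe set that did not pass may therefore still differ by such smaller folds. Between 47.2% and 52.0% of probe sets reached 200 per array, and precision is limited by how many arrays there are.

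Members and gene lists were chosen with earlier results of these data known. Named are every member probe set, up to 4 passing genes per pathway list and comparison, and the 3 genes most correlated with each member. Alternatives were quantile normalization, floors of 20 and 100, no filter and a filter at 500, fits without the trend, with array weights, with a replicate block or restricted to the groups compared, and leaving out arrays. Those for pathway genes were chosen after seeing the data. No 2 arrays had identical values. Sequences are from RefSeq.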

Additional observations from a re-analysis of the deposited data

Results flagged for a closer look

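Leg control 1 was far above the other leg controls on all 3 Ckmt2 probe sets, at 21379 for 103618_at, 9680 for 99270_f_at and 8080 for 98663_f_at, and far below them for Adss, at 318. Other single arrays far from their group were mdx extraocular array 2 for Gatm (1122), mdx extraocular array 3 for Gamt (83.6), mdx extraocular array 5 for Adsl (2208), mdx leg array 2 for Ampd3 (188), control extraocular array 4 for Prkag1 (940.3) and control extraocular array 1 for Pnp (1268). By chance about 1 in 20 groups of arrays holds such a value, and 60 groups were examined. The mdx effect differed between leg and extraocular muscle for Gatm (by 2.59 log2 units, leg minus extraocular), Pnp (1.10) and Adssl1 (-0.69), each by a test of the difference itself in limma.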

How the results depend on the processing

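Of 535 alternative values of the 5 energy buffer probe sets 499 kept their direction and side of the threshold, and of 419 alternative values of the pathway differences that had passed 390 did, the other 29 losing the call. In leg muscle the count of energy buffer probe sets past the threshold was 1, and became 2 with a replicate block and 0 without leg control 1 and 4. Between the muscles of mdx mice it was 1, and became 3 with quantile normalization, 2 with a filter at 500, 4 with array weights, 2 with only the groups compared, 3 with a replicate block, and 1 to 3 without 1 array. In control mice it was 0 and became 1 with quantile normalization. For the difference of mdx effects it was 0 and became 1 with a replicate block and 0 to 1 without 1 array. Same-numbered arrays of different groups correlated between -0.08 and 0.23 in their deviations from group means. The median was 0.029 for these pairs and -0.015 for pairs of different numbers. The labels do not say what the numbers mark, so they were not taken to pair the samples. As a hint from the data and not from the design, 10 of 20 arrays lay nearest their own number, out of 5 numbers for each array. With the block, 98663_f_at passed in leg muscle (limma adjusted p = 0.018), 99270_f_at for the difference of mdx effects (0.0118), and both between the muscles of mdx mice (0.00854 and 0.00287). Over all probe sets, the extraocular mdx count of 6 became 11 with a floor of 100, 3 without a filter, 11 with array weights, and 3 to 11 without 1 array. The pathway count between the muscles of mdx mice was 7, and 3 to 8 without 1 array (3 without mdx leg array 5 and 4 without mdx extraocular array 5). Directions turned for 19 values, none of which had passed. With quantile normalization these were Ak1 in leg muscle (0.039) and between the muscles of mdx mice (-0.14), 99270_f_at in extraocular muscle (-0.046) and 98663_f_at between the muscles of control mice (0.092). The last was also 0.11 with array weights, 0.29 without leg control 1 and 4, and -0.13 to 0.28 without 1 array. Without 1 array, the extraocular mdx difference ran from -0.13 to 0.19 for 99270_f_at, from -0.087 to 0.22 for 98663_f_at and from -0.13 to 0.044 for Ckb, and the difference between the muscles of mdx mice ran from -0.054 to 0.15 for Ak1. The causes were not tested.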
